A study of Mus musculus with 8 samples.

Results

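The genes described here encode the channel proteins of gap junctions and pannexin channels, and comprised the connexin genes Gjd2, Gjc1, Gja1 and Gjb6 and the pannexin genes Panx1 and Panx2. They were chosen by gene name, and the rows of the deposited table that carry each name were summed, which gave 6 genes of 23335 gene names. Connexins assemble into hexameric hemichannels, and hemichannels of neighboring cells dock to form gap junctions that pass ions and small molecules. In cortex, parvalbumin interneurons are known for electrical synapses built from the product of Gjd2, while astrocytes are coupled through the products of Gja1 and Gjb6. Pannexins form large-pore channels of a single membrane and are best known for releasing ATP.

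Messenger RNA was measured in single neurons picked by hand from the frontal cortex of 4 mice, with varietal tags that mark each molecule (UMI). All mice were labeled female, and the sample titles call them WT (wild type). Chandelier cells (ChC), interneurons that innervate the axon initial segment of pyramidal cells, came from Nkx2.1-CreER; Ai14 mice, in which tamoxifen at embryonic day 17.5 switched on a red reporter in cells descended from Nkx2.1-expressing precursors. Pv cells came from Pv-ires-Cre; Ai14 mice, in which Cre is driven from the parvalbumin locus. ChC batches 1 and 2 came from animal 1 (postnatal day 31) and batches 3 and 4 from animal 2 (day 32), and Pv batches 5 and 6 came from animal 3 (day 29) and batches 7 and 8 from animal 4 (day 35). Each batch comprised 16 cells, and 126 cells held counts. The tamoxifen treatment is also written in the labels of the Pv samples, whose genotype names no CreER. Cell type, mouse line and flow cell coincide, as do animal and sequencing lane within a cell type, and these cannot be told apart. Batches 1, 2, 5 and 6 were run in lane 1 and batches 3, 4, 7 and 8 in lane 2, and lanes of the different flow cells share only a number.

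Depth was 527743, 657957, 2898413 and 1307666 UMI in ChC batches 1 to 4, and 456458, 501563, 370238 and 921212 UMI in Pv batches 5 to 8. Levels are given as CPM, the UMI of a gene scaled to a common batch total, with TMM scaling between batches, and a mean is followed by its SD over the 4 batches of a cell type. These SDs treat batches as separate although each animal gave 2 of them. Levels of the genes described here were not compared with each other, since the summed rows of a gene can count a molecule more than once. No adjustment for length was made to these counts of molecules. The most abundant gene of a marker list is the one with the highest CPM, also from summed rows. The markers fixed for the parent lineage of both cell types (Gad1, Gad2, Slc32a1, Lhx6, Nkx2-1, Sox6, Erbb4 and Dlx1) were detected in every batch, 8 of 8. Pvalb, which encodes parvalbumin, had a UMI in 63 of 63 Pv cells and in 52 of 63 ChC.

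All 6 genes were detected, but sparsely. They held 125 UMI (Gjd2), 17 (Gjc1), 212 (Gja1), 42 (Gjb6), 157 (Panx1) and 84 (Panx2), and none had a UMI in all 8 batches. Of 63 ChC, 21 had no UMI of any of the 6 genes, and of 63 Pv cells, 8 had none. The median total was 31677 UMI in ChC with none of the genes, 19623 UMI in the 13 ChC with 1 of them and 433878 UMI in the 4 ChC with 5.

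Gjd2 encodes the main connexin of neuronal electrical synapses. In mm9 it is annotated on the minus strand of chromosome 2 (113835337 to 113839355), where it overlaps 2 noncoding genes of the other strand by 57 and 18 bases, and whether the counting used strand was not given in the sources used here. In ChC batches 1 to 4 Gjd2 was at 25.4, 0, 12.3 and 10.5 CPM. In Pv batches 5 to 8 it was at 69.5, 48, 9.44 and 6.08 CPM. The 2 high Pv batches were both from animal 3, and the batches of animal 4 lay below 3 of the 4 ChC batches, so the cell types overlapped. Batches 7 and 8 held only 4 and 6 Gjd2 UMI. With no TMM scaling batch 7 lay just above ChC batch 4, at 10.8 against 10.7 CPM, and the cell types still overlapped. The mean of the ChC batches was 12.0 ± 10.4 (SD, n = 4) and that of the Pv batches 33.2 ± 30.7 (SD, n = 4), a difference smaller than the SD of the Pv batches. Without batch 1 the ChC mean was 7.60, and without batch 5 the Pv mean was 21.2. When the CPM of each cell was averaged, so that every cell counted alike, the ChC mean was 26.5 and the Pv mean 32.1, a smaller gap. In this average a UMI of a shallow cell weighs more, and 14 ChC and 4 Pv cells held under 10000 UMI. Without these cells, the log2 ratio of ChC to Pv fitted by edgeR to UMI summed per animal was -1.62, against -1.54 with all cells. The part of shallow cells in the average was not tested. In batch 2 no cell of 16 had a UMI, which at 3 UMI allows up to 4.66 CPM.

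A Gjd2 UMI was found in 26 of 63 ChC (41.3%, 95% exact Clopper-Pearson interval 29.0 to 54.4) and in 34 of 63 Pv cells (53.97%, interval 40.9 to 66.6). These intervals cover counting error only. In batch 5, 15 of 16 cells had a UMI, and in batch 7, 4 of 16. Because a deeper cell has more chances to show a UMI, the share was also computed for 10000 UMI drawn from each cell, leaving out 14 ChC and 4 Pv cells that were shallower. At that depth the share in ChC was 10.3% ± 8.03 (SD, n = 4) and in Pv cells 27.4% ± 22.5 (SD, n = 4), within the spread of the batches. At 5000 UMI these shares were 7.20% and 15.1%. Among ChC, Gjd2 was found in 23 of 52 cells with a Pvalb UMI and in 3 of 11 without, and the median totals of these cells were 54098.5 and 5921 UMI, so depth moves with this difference and its part was not tested.

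Gjc1 encodes a connexin made by some neurons and by vascular muscle and is annotated on chromosome 11 from 102660792 to 102681000. Its 3 rows held 5, 6 and 6 UMI, which are largely the same molecules counted for several transcripts, so the sum of 17 overstates them. Gjc1 was at 0, 3.11, 4.09 and 2.26 CPM in ChC batches 1 to 4 and at 0 in Pv batches 5 to 8, where 3 UMI correspond to 6.95, 6.26, 7.08 and 3.04 CPM. UMI were found in 5 of 63 ChC and in 0 of 63 Pv cells. For Pv, a limit of 3 cells corresponds to a share of 4.76%, and the exact Clopper-Pearson interval reaches 5.69%. Both concern cells with a UMI and set no limit on cells that express the gene. The summed levels of ChC batches 2 and 3 lay above what 3 UMI are worth in batch 8 and below it in batches 5 to 7. From the row with the most UMI of every gene, also in the batch totals, Gjc1 was at 0, 1.84, 1.60 and 0.876 CPM in ChC batches 1 to 4, a mean of 1.08 against 2.36 for the sum. These levels lay below what 3 UMI of such rows are worth in each Pv batch (8.08, 7.29, 8.28 and 3.52 CPM), and a difference was not detectable at this depth.

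Gja1 encodes the principal connexin of astrocytes and lies on chromosome 10 from 56097106 to 56110225 on the plus strand. It was at 4.23, 6.22, 31.3 and 73.0 CPM in ChC batches 1 to 4. In Pv batches 5 to 8 it was at 0, 2.09, 16.5 and 9.13 CPM. The batches of animal 2 were highest, those of animal 4 followed, and the cell types overlapped. The mean of the ChC batches was 28.7 ± 32.0 (SD, n = 4) and that of the Pv batches 6.93 ± 7.49 (SD, n = 4), a difference smaller than the SD of the ChC batches. Without batch 4 the ChC mean was 13.9, and without batch 7 the Pv mean was 3.74. In batch 4 every one of 15 cells had a Gja1 UMI, and in batch 5 none of 16 did. At 10000 UMI a cell the share in ChC was 21.4% ± 25.6 (SD, n = 4) and in Pv cells 6.44% ± 5.33 (SD, n = 4). Without batch 4 the ChC share was 10.03%, and at 5000 UMI the shares were 14.5% and 3.31%.

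Gjb6 encodes the second astrocytic connexin and is annotated on chromosome 14 from 57742140 to 57752414 on the minus strand. Its 2 rows held identical counts, 21 UMI each, so the sum counts each molecule 2 times. Summed, Gjb6 was at 0 in ChC batches 1 to 4 and in Pv batches 5 and 6, at 94.4 CPM in batch 7 and at 2.03 CPM in batch 8. With 1 row for every gene, also in the batch totals, which are then smaller, batch 7 was at 55.2 CPM, batch 8 at 1.17 CPM and the Pv mean at 14.1 CPM. The summed Pv mean of 24.1 ± 46.9 (SD, n = 4) rested on batch 7, without which it was 0.676, and in batch 7 13 of 16 cells had a UMI (81.3%, exact Clopper-Pearson interval 54.4 to 96.0). Batch 7 held 95.2% of the Gjb6 UMI and 4.85% of all UMI. Among 12575 genes with at least 20 UMI in their row with the most, a minimum chosen after the values of Gjb6 were seen, the median share in the batch with the most UMI was 45.6%, and in 396 genes the share was as high as for Gjb6 or higher.

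Markers of astrocytes were examined beside both genes. Of the 12 astrocyte markers fixed here, 7, 8, 8 and 9 were detected in ChC batches 1 to 4 and 6, 7, 10 and 11 in Pv batches 5 to 8. Their summed level was 332, 786, 882 and 1781 CPM in the ChC batches and 391, 184, 2537 and 1377 CPM in the Pv batches. The list was highest in batch 7, as Gjb6 was, but Gjb6 was at 0 in batch 4, where the list was higher than in batch 8. Within each cell type, both the list and Gja1 were higher in the batches of animals 2 and 4 than in those of animals 1 and 3, but Gja1 was higher in batch 3 than in batch 7 and the list lower. Its most abundant gene was Slc4a4 in batches 1, 5 and 6, Slc1a2 in batches 2, 4 and 7, Glul in batch 3 and Fgfr3 in batch 8. Gfap was at 0 in all 8 batches and Aldh1l1 in 6 of them, although batches 2 and 8 held it.

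Batches 1, 2, 3, 6, 7 and 8 held both cells with a Gja1 UMI and cells without. The summed astrocyte list was higher in the cells with Gja1 in 6 of these 6 batches, by between 1.02 and 1.78 times, as CPM of the pooled cells with no TMM scaling. In batch 3 it was at 894 CPM in 12 cells with Gja1 and at 879 CPM in 4 cells without. In batch 7 it was at 3062 CPM in 4 with and 2786 CPM in 12 without, and in batch 8 at 1575 CPM in 7 with and 1394 CPM in 9 without. Batches 1, 2 and 6 had only 2, 3 and 1 cells with Gja1, and the list was at 484 against 272, 798 against 766 and 267 against 172 CPM. By the median over cells, 5 of the 6 batches were higher and batch 7 was lower. For Gjb6 in batch 7 the list was at 3034 CPM in 13 cells with and 2363 CPM in 3 cells without, and in batch 8 at 1699 CPM in 1 cell with and 1460 CPM in 15 without. Whether RNA of astrocytes contributed to the UMI of Gja1 and Gjb6 was not tested. Of the other lists, the summed level over the 8 batches ranged from 1159 to 3372 CPM for Pv fast-spiking markers, 41.6 to 1836 CPM for interneurons of the caudal eminence, 0 to 2.36 CPM for somatostatin cells, 2.09 to 293 CPM for pyramidal cells, 0 to 93.3 CPM for oligodendrocyte precursors, 0 to 94.8 CPM for microglia and 79.3 to 217 CPM for endothelium, with Cldn5 at 0 in every batch. The 4 mural markers summed to 0 in batches 1 to 6, to 75.5 CPM in batch 7, with 2 detected and Pdgfrb the most abundant, and to 97.3 CPM in batch 8, all from Rgs5, with Vtn and Acta2 at 0 in every batch. These are the batches in which Gjb6 was found, and the part of mural RNA in its level was not tested. Bsg was the most abundant endothelial marker in every batch, at 62.6 to 206 CPM. Slco1c1, of the same list, was at 75.5 CPM in batch 7, at 2.32 and 2.09 CPM in batches 5 and 6, and at 0 in the others. Flt1, also of that list, was lower in batch 7, at 7.08 CPM, than in batch 6, at 12.5 CPM. The part of endothelial RNA in the level of Gjb6 was not tested either.

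**Figure D1:**
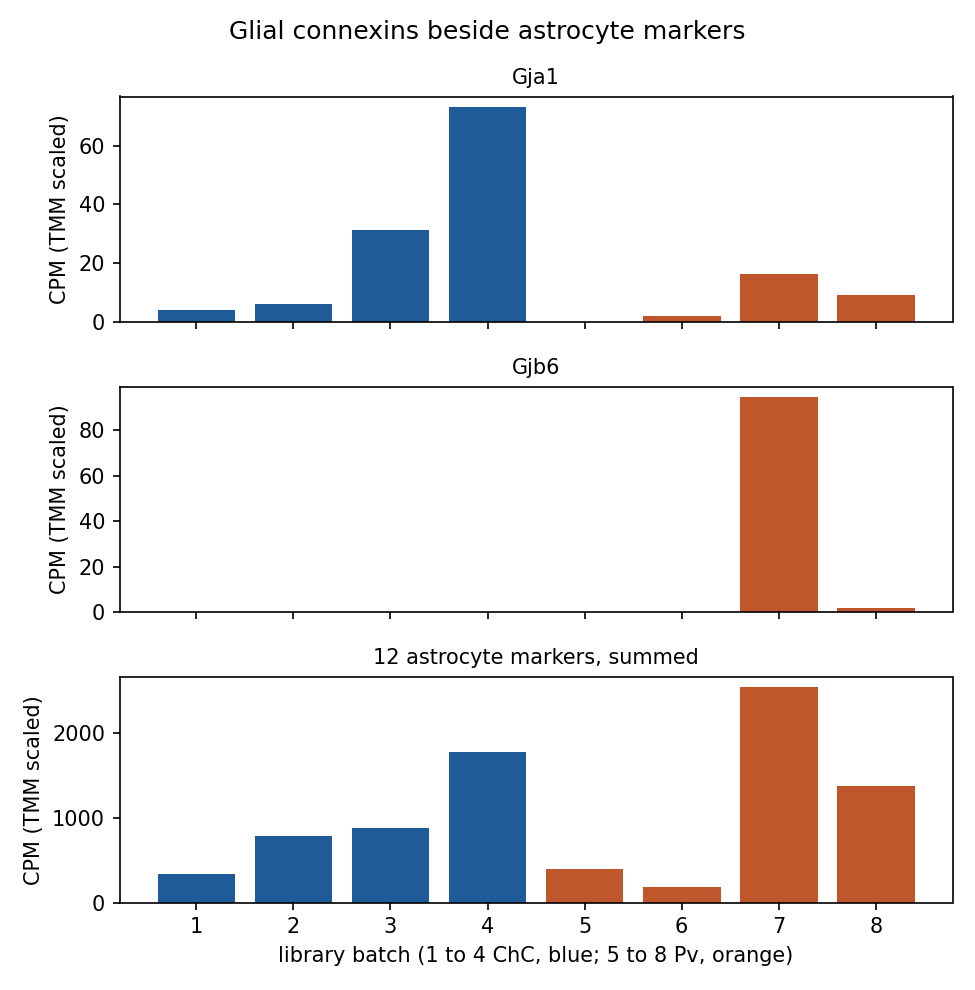
Levels of Gja1, of Gjb6 and of 12 astrocyte markers summed, in CPM with TMM scaling (vertical axes, from 0), for each library batch (horizontal axis; ChC in blue, Pv in orange). Gjb6 was at 94.4 CPM in batch 7, where the astrocyte list was at 2537 CPM, and at 2.03 CPM in batch 8, and Gja1 was highest in batch 4, at 73.0 CPM.

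Panx1 encodes the widely expressed pannexin that releases ATP and lies on chromosome 9 from 14810229 to 14849922 on the minus strand. It was at 0, 0, 28.3 and 30.9 CPM in ChC batches 1 to 4. In Pv batches 5 to 8 it was at 0, 0, 28.3 and 21.3 CPM. Each cell type thus had an animal with Panx1 in both batches and an animal with none, and the levels of the animals with UMI were alike in ChC and Pv. In the batches at 0, 3 UMI correspond to 6.34, 4.66, 6.95 and 6.26 CPM, below the levels in the others. The mean of the ChC batches was 14.8 ± 17.1 (SD, n = 4) and that of the Pv batches 12.4 ± 14.6 (SD, n = 4). Without batch 4 the ChC mean was 9.42, and without batch 7 the Pv mean was 7.10.

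Panx1 was found in 11 of 16, 13 of 15, 6 of 16 and 10 of 16 cells of batches 3, 4, 7 and 8. Mbp, a myelin gene and the most abundant oligodendrocyte marker in these 4 batches, was at 126, 162, 191 and 92.3 CPM in them, and at 0, 4.66, 0 and 0 CPM in batches 1, 2, 5 and 6. Of the 8 oligodendrocyte markers, 4, 3, 5, 5, 2, 2, 5 and 3 were detected in batches 1 to 8, with Mag, Mobp and Opalin at 0 in all of them, and their summed level was 16.9, 9.33, 158, 201, 34.7, 253, 215 and 96.3 CPM. The most abundant gene was Cnp in batches 1, 5 and 6 and Mbp in the other batches. Their part in the levels of Panx1 was not tested.

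Panx2 encodes a pannexin that is prominent in the nervous system and lies on chromosome 15 from 88890156 to 88901337 on the plus strand. It was at 0, 0, 22.5 and 5.27 CPM in ChC batches 1 to 4. In Pv batches 5 to 8 it was at 0, 10.4, 2.36 and 5.07 CPM. Only batch 3 stood high, with 66 of the 84 UMI (78.6%) from a batch that held 37.9% of all UMI, and the cell types overlapped. The mean of the ChC batches was 6.94 ± 10.7 (SD, n = 4) and that of the Pv batches 4.47 ± 4.49 (SD, n = 4). Without batch 3 the ChC mean was 1.76, and without batch 6 the Pv mean was 2.48. Panx2 was found in 13 of 16 cells of batch 3 and in 0 of 16 cells of batch 5.

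**Figure D2:**
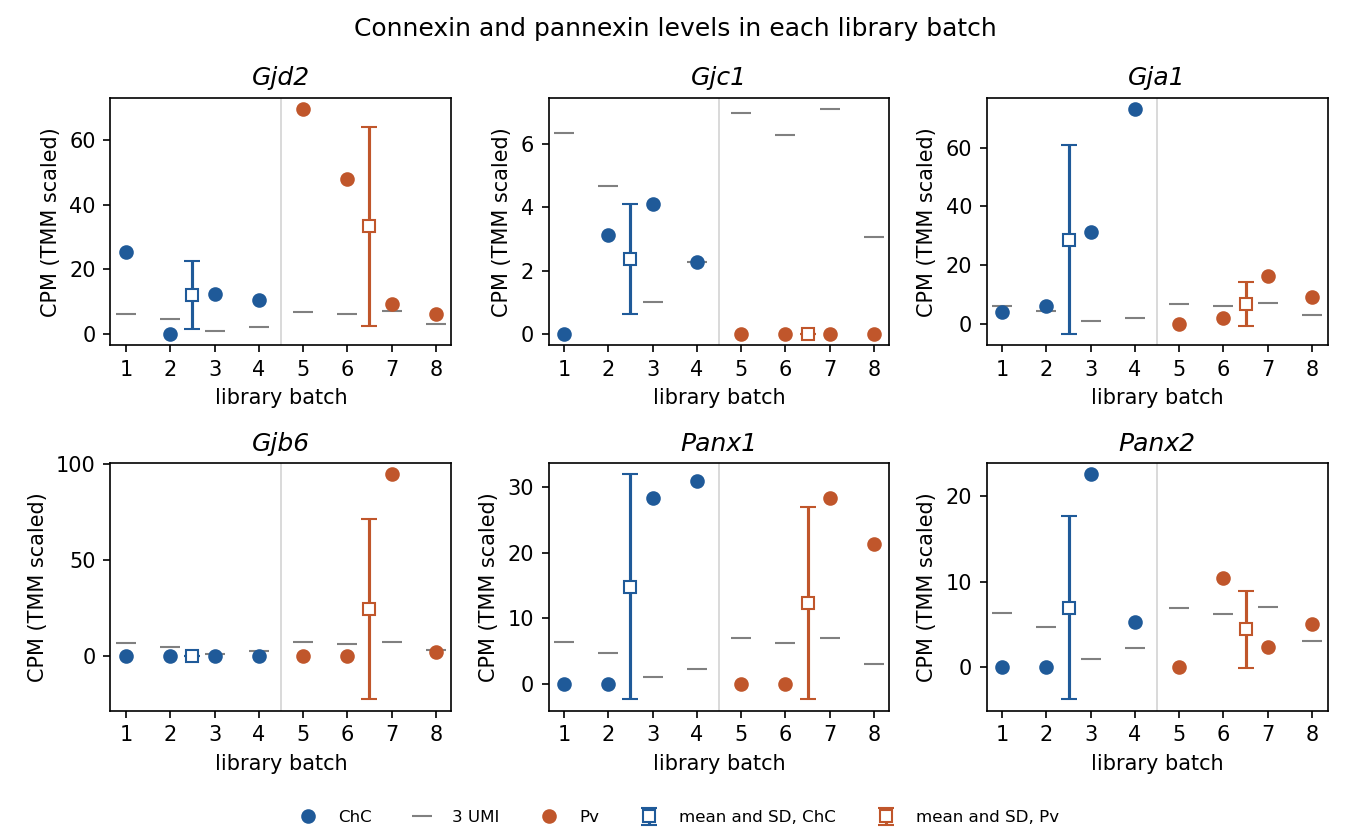
CPM with TMM scaling (vertical axes) of each of the 6 genes in library batches 1 to 8 (horizontal axes). Filled points are batches, open squares with bars are the mean and SD over the 4 batches of ChC (blue) or Pv (orange), and grey dashes mark what 3 UMI are worth in a batch. Gjd2 was highest in batches 5 and 6, at 69.5 and 48 CPM, and Panx1 was at 0 in batches 1, 2, 5 and 6.

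How the UMI of a gene were spread over the cells of a batch was measured as the chi-square per degree of freedom against a split in proportion to cell totals, with genes and totals counted from the row with the most UMI of each gene. It was computed for the 13 pairs of gene and batch with at least 12 UMI in that row, which include none of Gjc1. The median of a batch over genes with 12 to 100 UMI lay between 0.968 and 1.01. Gjd2 was at 3.22, 2.45 and 0.702 in ChC batches 1, 3 and 4 and at 0.620 and 1.02 in Pv batches 5 and 6. Gja1 was at 0.952 and 0.955 in batches 3 and 4, and Panx2 at 1.01 in batch 3. Panx1 was at 1.21, 0.865, 1.62 and 0.939 in batches 3, 4, 7 and 8, and Gjb6 at 0.585 in batch 7. Values above and below the medians were thus both found, with Gjd2 in batches 1 and 3 highest, and no test was made, since cells are not replicates. The value of Gjd2 in batch 1 rests on 12 UMI over 16 cells. Their totals, from summed rows, ran from 1231 to 107912 UMI, and a UMI in a shallow cell raises this measure strongly. The spread of other genes at such counts was not examined.

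To compare ChC with Pv across all genes, UMI were summed per animal and tested with edgeR, 2 animals against 2. Of 9829 genes that passed the filter on low counts, 0 (0%) had an adjusted p under 0.05, and 616 had an unadjusted p under 0.05. DESeq2 called 151. Of the 6 genes, 3 passed the filter and 0 were called. On the log2 scale, the fitted ratio of ChC to Pv was 1.99 for Gja1 (standard error 1.71, edgeR adjusted p = 0.976), -1.54 for Gjd2 (standard error 1.52, edgeR adjusted p = 0.988) and 0.35 for Panx1 (standard error 2.21, edgeR adjusted p = 0.999). Each of these 3 was little more than its standard error or less, beside a median over all genes tested of 0.04. Pvalb, whose locus drives Cre in the Pv line, was not called either, at a log2 ratio of -2.99 (standard error 0.63, edgeR adjusted p = 0.598). Without animal 2 the value for Gja1 was -0.22, without animal 3 that for Gjd2 was 0.71, and without animal 3 that for Panx1 was -0.61. Without animal 2 or animal 4, a cell type was left with no Panx1 UMI, and the fitted ratio then depends on the prior count and is no bound. Gjc1, Gjb6 and Panx2 did not pass the filter. With no filter, the log2 ratio was 0.92 for Panx2 (standard error 1.96, edgeR adjusted p = 0.984), -7.79 for Gjb6 (standard error 2.79, edgeR adjusted p = 0.228) and 5.44 for Gjc1 (standard error 3.42, edgeR adjusted p = 0.747). Gjb6 was at 0 in ChC and Gjc1 at 0 in Pv, so both of these ratios depend on the prior count and are no bounds.

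The cell types were also compared by whether their batches overlap. Among the 9829 genes tested, 413 had all 4 batches of a cell type above all 4 of the other (4.20%), and 0 of the 3 genes described here that were tested did. The batches of Gjc1, Gjb6 and Panx2, which lie outside that set, overlapped too. An exact permutation test over batches was planned for genes above the filter on low counts in all 8 batches, and none of the 6 was.

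Of 22 connexin and pannexin genes examined, 11 had a UMI. Besides the 6 genes, Gjc3, a connexin of myelinating glia, held 120 UMI and was the only one detected in all 8 batches, at 23.2, 9.33, 12.9 and 15.1 CPM in ChC and at 20.8, 10.4, 49.6 and 10.1 CPM in Pv. Its fitted log2 ratio of ChC to Pv was -0.38 (standard error 1.33, edgeR adjusted p = 0.999). Gje1 held 18 UMI, Gjb2 10, Gja4 6 and Gja3 1. The 4 family genes tested had a median log2 fold change of -0.01, with 2 above and 2 below 0.

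Partners of gap junctions, such as the scaffold gene Tjp1 and the kinase and calmodulin genes that act on connexins, were detected in 22 of 22 cases. Of these, 18 were tested, 10 were above and 8 below 0 with a median log2 fold change of 0.05, and 0 were called. Those with the most UMI were Magi2, a membrane scaffold, at a log2 fold change of -0.01 (standard error 0.45), and Calm2, a calmodulin gene, at -0.18 (standard error 0.49). Of 18 genes of ATP release and purine signaling, 14 had a UMI and 8 were tested, with 5 above and 3 below 0, a median of 0.40 and 0 called. Slc29a1, a nucleoside transporter, held the most UMI, and its log2 fold change was 3.36 (standard error 0.92, edgeR adjusted p = 0.598). Lrrc8d, a subunit of volume-regulated anion channels, was at 1.39 (standard error 1.21).

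Genes whose levels over the 8 batches were most like those of a gene were taken by Pearson correlation of log2(CPM + 10) among 9692 genes with a mean of at least 10 CPM. The values describe these 8 batches, of which each animal gave 2, and carry no test. For Gjd2 these were Rpl23a (r = 0.940), Arl5a (0.927) and Snord42a (0.924). For Gja1 they were Rap1b (0.976), Txlna (0.972) and Rrbp1 (0.970). For Panx1 they were Mbp (0.993), Cd72 (0.992) and Tesk1 (0.987), and for Panx2 Lsm14a (0.963), 9230115E21Rik (0.956) and Gm10052 (0.944). Cd72 and Tesk1 had close levels, at 58.9 and 59.3 CPM in batch 3 and both at 48.9 CPM in batch 4. Whether genes named for the same gene share tags or overlap was not tested, so they may not be separate matches.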

How the data were processed

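The authors aligned reads to mm9 with Bowtie 0.12.7, collapsed reads of a gene with the same varietal tag, and deposited these counts per RefSeq transcript and cell without normalization, for 27207 rows and 128 cells. Of these, 2 cells had no count and were left out. Picked cells had been amplified by 2 linear rounds and sequenced in batches of 16. Here rows were summed per gene name. Totals per batch ran from 370238 to 2898413 UMI, and 3 UMI were taken as the limit that a count of 0 allows. UMI summed per animal were tested with edgeR 4.0.16 (quasi-likelihood, TMM, filterByExpr, Benjamini-Hochberg over all genes tested, threshold 0.05). The standard errors printed with edgeR ratios were the absolute log2 ratio over the square root of the F statistic, so they restate the test. Alternatives used DESeq2 1.42.0, limma 3.58.1, other scaling, no filter, the row with the most UMI, batches as samples, and left out cells, batches or animals. The edgeR step was tested on simulated counts: at the dispersion estimated from these animals it recovered none of the changed genes, and at a lower dispersion it recovered most of them, with some false calls, so the absence of calls says little about the genes. Descriptions used Python 3.11.15 with pandas 2.3.3 and scipy 1.17.1. Overlapping genes were read from GENCODE M1. The genes named are the 6 genes, the detected genes of their family, the genes with the most UMI of the partner and purine lists, the label checks, cell type markers, and the 3 most similar genes of each gene with at least 50 UMI. Some genes of these lists are not reported here and were left out of their counts. The members and lists were chosen with earlier results of these data known.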

Additional observations from a re-analysis of the deposited data

Results flagged for a closer look

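Within each cell type the 4 batches were examined for a value far from the other 3, relative to their range (Dixon's criterion), for 49 groups of 4, and 10 stood apart. Chance flags about 1 in 20 such groups, and genes at 0 in most batches are flagged readily. Gjb6 in batch 7, at 94.4 CPM, stood above the other Pv batches. Gja3 in batch 2 (1.55 CPM) and Gja4 in batch 4 (4.52 CPM) were found in no other ChC batch. Among ChC batches, the summed Pv fast-spiking markers were highest in batch 1, at 2246 CPM, the markers of interneurons from the caudal eminence in batch 4, at 1836 CPM, those of oligodendrocyte precursors in batch 2, at 93.3 CPM, and those of microglia in batch 4, at 94.8 CPM. Among Pv batches, batch 7 stood above the others in the summed markers of pyramidal cells, at 293 CPM, of microglia, at 47.2 CPM, and of somatostatin cells, at 2.36 CPM, which was 1 UMI.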

How the results depend on the processing

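No paired analysis was possible because the replicate numbers are batch numbers 1 to 8, which the cell types do not share, and lane numbers belong to separate flow cells. The count of genes called between ChC and Pv was 0 with edgeR and stayed 0 with RLE factors, library totals alone, the row with the most UMI and without cells under 10000 UMI. It was 151 with DESeq2, 80 with no filter, 5 with batches as samples in edgeR, 6 in limma-voom, 17, 51, 7 and 100 without animals 1, 2, 3 and 4, and between 0 and 1 with a batch left out. Without an animal, its cell type has 1 sample, which is assumed to vary like the others. The cause of these differences was not tested. Fold changes of Gja1, Gjd2 and Panx1 changed direction in 4 of 56 alternatives: Gja1 without animal 2 (-0.22), Gjd2 without animal 3 (0.71), and Panx1 without animals 2 (-6.75) and 3 (-0.61). Over the animals left out they ranged from -0.22 to 4.42 (Gja1), from -2.40 to 0.71 (Gjd2) and from -6.75 to 7.96 (Panx1). For Panx1 these ends are fits against a cell type with no UMI, which depend on the prior count and are no bounds. With batches as samples, Gja1 and Gjd2 fell below the filter and had no value. No member was called in a setting that tested it, but of 21 settings Gjb6 was tested in 4 (adjusted p from 0.228 to 0.822), Gjc1 in 1 and Panx2 in 5. Of 9829 genes tested, 413 had batches that do not overlap. With a batch left out (3 batches against 4), 662 to 895 did, 726 (7.39%) without batch 1. Of all 6 members, including the 3 below the filter, 0 did, and 1 only without batch 1. It was Gjc1, at 0 in every Pv batch, a difference not detectable at this depth. Averaging CPM over cells moved the ChC mean of Gjd2 from 12.0 to 26.5, near the Pv value of 32.1, and of Gjc1 from 2.36 to 5.52. In that average cells under 10000 UMI, 14 ChC and 4 Pv, count as much as deep ones. Without them the fitted log2 ratio of Gjd2 was -1.62. With the row with the most UMI of every gene, also in the totals, the ChC mean of Gjc1 was 1.08 and the Pv mean of Gjb6 14.1, and the share for Gjc1 in ChC was 0.271% in place of 0.668%. Without thinning, shares of ChC cells with a UMI were 51.6% (Gja1), 7.92% (Gjc1), 41.4% (Gjd2), 38.9% (Panx1) and 28.6% (Panx2), and of Pv cells 18.9% (Gja1), 54.2% (Gjd2), 25% (Panx1) and 16.1% (Panx2), averaged over batches. At 5000 UMI the share for Gjc1 in ChC was 2.01%, and 6 other shares fell by over 1.5 times, to between 2.44% (Panx2, Pv) and 15.1% (Gjd2, Pv). At 10000 UMI a batch left out moved 7 shares by over 1.5 times: in ChC to 0.221% (Gjc1, without batch 3), 10.03% (Gja1, without batch 4), 8.37% (Panx1, without batch 4) and 1.74% (Panx2, without batch 3), and in Pv to 0.678% (Gjb6, without batch 7), 5.18% (Panx1, without batch 7) and 2.08% (Panx2, without batch 6). Leaving out a batch for mean CPM was chosen after seeing the data and moved 9 means by over 1.5 times, most of all that of Gjb6 in Pv, to 0.676 without batch 7.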
